A study of Mus musculus with 2 samples.

Results

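The Hox clusters of the mouse carry 6 named microRNA genes, Mir10a, Mir10b, Mir196a-1, Mir196a-2, Mir196b and Mir615, and these genes are described here in newborn heart. They were chosen by name and position, not by a cut on their values, though earlier results of these data were known. Each is annotated between the first and the last Hox gene of 1 of the 4 clusters. All 6 have a row among the 1973 microRNA genes counted. The data are microRNA-seq libraries from whole hearts of newborn pups of the B6NCrl strain at postnatal day 0, made from total RNA with a size range under 30 nt. Replicate 1 was the heart of pup 1 and replicate 2 the heart of pup 3, with 1 library per heart; the labels give the hearts a common donor entry, no sex, and no treatment or second condition. Counts on the strand of the gene totalled 6373797 in replicate 1 and 7630427 in replicate 2, and levels are given as CPM, counts per 1000000 of that total. Each microRNA yields a short product of nearly fixed length, so CPM was not divided by length. A count of 0 allows up to 0.471 CPM in replicate 1 and 0.393 CPM in replicate 2, the level of 3 counts. Intervals are exact Clopper-Pearson 95% intervals, and like the floors they cover counting error only. In whole heart, fewer cells of a type and less of the microRNA per cell cannot be told apart.

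Hox genes encode transcription factors that give cells their position along the head to tail axis, and their order in a cluster follows that axis: low-numbered genes at the 3' end act toward the head and high-numbered genes at the 5' end toward the tail. MicroRNAs encoded among them are transcribed with or beside the Hox genes, and several repress Hox mRNAs; miR-196 directs cleavage of Hoxb8 mRNA in mouse, and miR-10 represses HOXD10 in human cells and Hox genes of low number in zebrafish. In the heart, low-numbered Hox genes are known from the second heart field and the cardiac neural crest, which build the outflow tract, and miR-10 is also known from endothelial cells.

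The mature sequences are shown because they decide which of these genes a read can be given to. They are from RefSeq on build GRCm38.p6, which held mature sequences for 6 of the 6 genes, and are written 5' to 3' with the seed, bases 2 to 8, in capitals. The seed is the main part by which a microRNA recognizes its targets, though bases outside it can pair as well. The deposited counts are per gene and do not separate the arms of a hairpin.
mmu-miR-10a-5p: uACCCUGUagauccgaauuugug
mmu-miR-10b-5p: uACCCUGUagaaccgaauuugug
mmu-miR-196a-5p: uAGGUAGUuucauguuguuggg
mmu-miR-196b-5p: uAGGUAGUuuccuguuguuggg
mmu-miR-615-3p: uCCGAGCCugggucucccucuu

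By seed the 6 genes fell into 3 families. The seed ACCCUGU was found in Mir10a and Mir10b and in no other of the 1058 genes of the RefSeq table. The seed AGGUAGU was found in Mir196a-1, Mir196a-2 and Mir196b only, and CCGAGCC in Mir615 only. Counted from 1 at the 5' end, the 5' products of the Mir10 genes differ at 1 position, U12A from miR-10a-5p to miR-10b-5p. The 5' products of the Mir196 genes also differ at 1 position, A12C from miR-196a-5p to miR-196b-5p. In each family the difference between these 5' products lies outside the seed.

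Mir196a-1 and Mir196a-2 are the exception in how reads can be placed, since their 5' product is the same sequence. Their hairpins are shown for this reason, with the annotated mature arms in capitals.
Mir196a-1: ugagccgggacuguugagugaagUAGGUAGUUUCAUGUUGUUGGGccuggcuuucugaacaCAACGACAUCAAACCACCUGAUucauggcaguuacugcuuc
Mir196a-2: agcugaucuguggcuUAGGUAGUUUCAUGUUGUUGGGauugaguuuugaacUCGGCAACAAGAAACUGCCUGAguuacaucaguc
The 5' arms are identical. Compared base by base from their annotated 5' ends, the 3' arms differ at 17 positions. This comparison did not align the arms, whose longest shared stretch, ccuga, starts at position 17 in miR-196a-1-3p and 18 in miR-196a-2-3p. Among 2201 annotated microRNA precursors, miR-196a-5p occurred in 2, while every other mature arm of the 6 genes occurred in 1. The tables list reads that matched several places apart from the genes, at 35.9% of reads in replicate 1 and 34.6% in replicate 2, and do not say which microRNAs they were. The counts of the Mir196a genes are therefore uncertain and can leave out miR-196a-5p. Mir10a, Mir10b, Mir196b and Mir615 share no stretch of 20 nt with another annotated precursor.

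All positions are on mm10, 1-based, from GENCODE M21. The Mir10 genes lie beside Hox4 genes. Mir10a is on chromosome 11 (96317165 to 96317274, plus strand), between Hoxb5 and Hoxb4 and in no other annotated transcript on its strand. Mir10b is on chromosome 2 (74726070 to 74726137, plus strand), in introns of Hoxd4 and of a long Hoxd3 transcript. The Mir196 genes lie beside Hox9 and Hox10 genes. Mir196a-1 is on chromosome 11 (96265164 to 96265265, plus strand), between Hoxb13 and Hoxb9, and is intergenic on its strand. Mir196a-2 is on chromosome 15 (102973350 to 102973434, plus strand), between Hoxc10 and Hoxc9, in an intron of a long noncoding transcript of Hoxc5. Mir196b is on chromosome 6 (52230081 to 52230165, minus strand), just downstream of Hoxa10, and overlaps exons and an intron of noncoding Hoxa9 transcripts. Mir615 is on chromosome 15 (103014910 to 103015001, plus strand), in an intron of Hoxc5. It was grouped with the Mir196 genes as posterior, but it lies 21.9 kb from the low-numbered end of Hoxc, a cluster of 116 kb that starts at Hoxc4, so its neighbours are Hox genes of low to middle number.

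**Figure D1:**
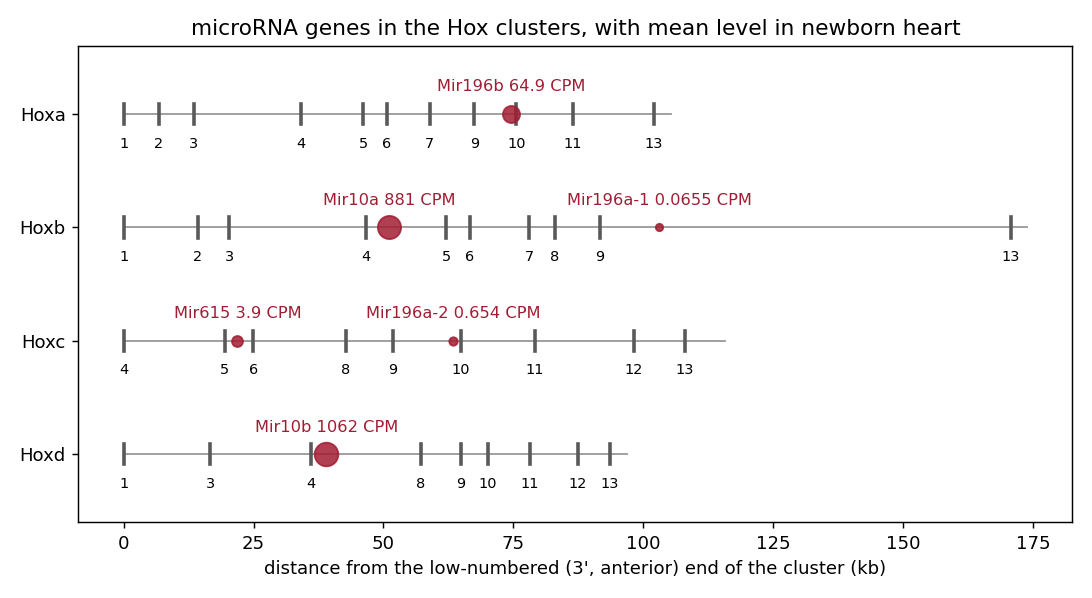
Map of the 4 Hox clusters, drawn from the low-numbered end (distance in kb on the x axis), with grey ticks at the 3' end of each Hox gene and its number below. Red circles are microRNA genes, labelled with the mean CPM of 2 hearts and larger for higher levels; the Mir10 genes next to Hox4 stand at 881 and 1062 CPM, Mir196b next to Hoxa10 at 64.9 CPM, and the other 3 genes at 3.90 CPM or less.

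The Mir10 genes gave nearly all counts of the set. Mir10b (ENSMUSG00000065500.2) had 6956 counts or 1091 CPM in replicate 1 and 7875 counts or 1032 CPM in replicate 2. Mir10a (ENSMUSG00000065519.1) had 5829 counts or 915 CPM in replicate 1 and 6474 counts or 848 CPM in replicate 2. The hearts gave close values for each gene, and the lower value of Mir10b lay above the higher value of Mir10a. The means were 1062 ± 41.9 CPM for Mir10b and 881 ± 46.7 CPM for Mir10a (SD, n = 2), at rank 72 and rank 78 of the 1973 genes. With the reads that match several places added to the totals, the means were 596 CPM and 495 CPM, and their order was the same.

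Mir196b, the Mir196 gene with its own mature sequence, was measured more than 10 times lower. Mir196b (ENSMUSG00000065443.1) had 350 counts or 54.9 CPM in replicate 1 (interval 49.3 to 61.0) and 571 counts or 74.8 CPM in replicate 2 (68.8 to 81.2). Its mean was 64.9 ± 14.1 CPM, at rank 179. The 2 intervals do not overlap, so the hearts differed by more than counting error.

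Mir615 was low but detected in each heart, and the Mir196a genes were at or near the floor. Mir615 (ENSMUSG00000076010.1) had 28 counts or 4.39 CPM in replicate 1 (2.92 to 6.35) and 26 counts or 3.41 CPM in replicate 2 (2.23 to 4.99), with a mean of 3.90 ± 0.697 CPM at rank 297. Mir196a-2 (ENSMUSG00000065488.1) had 5 counts or 0.784 CPM in replicate 1 (0.255 to 1.83) and 4 counts or 0.524 CPM in replicate 2 (0.143 to 1.34). Mir196a-1 (ENSMUSG00000065546.1) had 0 counts in replicate 1, where the floor is 0.471 CPM and the interval reaches 0.579 CPM, and 1 count or 0.131 CPM in replicate 2 (0.00332 to 0.730). In counts given to single genes, these values place Mir615 above both Mir196a genes. The intervals of the 2 Mir196a genes overlap in each heart and leave their order undecided. Since Mir196a counts can leave out miR-196a-5p, the order of the Mir615 and miR-196a products was not measured. In each heart 4 of the 6 genes reached 10 counts.

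**Figure D2:**
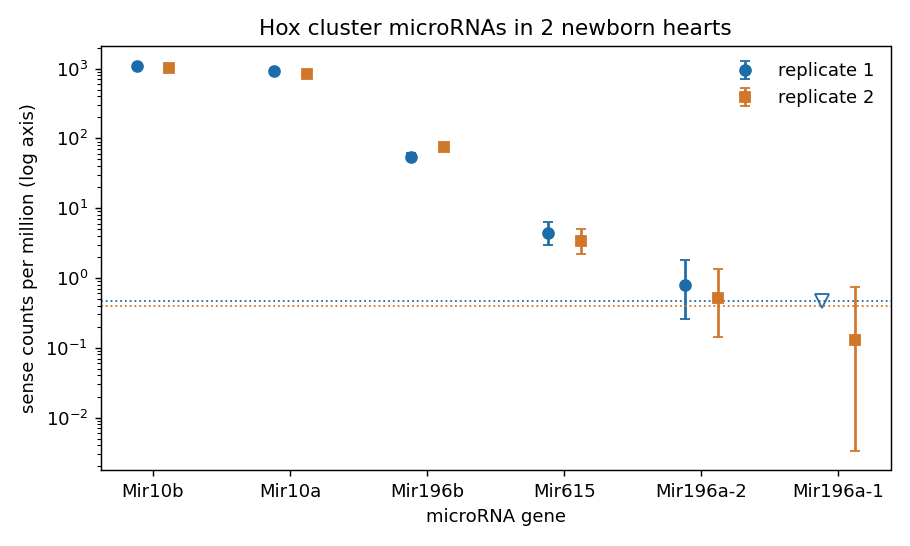
CPM of each gene in each heart on a log axis, circles for replicate 1 and squares for replicate 2, with exact 95% counting intervals as bars and dotted lines at the level of 3 counts. The open triangle is the limit for Mir196a-1 in replicate 1, where its count was 0; the order runs from Mir10b at 1091 and 1032 CPM down to Mir196a-1.

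As a set, the 6 genes took 0.207% of the counts in replicate 1 (0.203 to 0.210) and 0.196% in replicate 2 (0.193 to 0.199). Within the set, Mir10b made up 52.8% in replicate 1 and 52.7% in replicate 2. Mir10a made up 44.3% and 43.3% in the same order of hearts, and Mir196b 2.66% and 3.82%. The split between the Mir10 genes was thus close to even in each heart, and Mir196b was the only other gene above 1% of the set. The remaining 3 genes together stayed under the level of Mir196b in each heart.

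The Mir10 genes stood far above the Mir196 and Mir615 genes in counts given to single genes. In replicate 1 Mir10a and Mir10b had 12785 counts together, against 383 for the Mir196 and Mir615 genes, a ratio of 33.4 (interval 30.2 to 37.0). In replicate 2 they had 14349 counts against 602, a ratio of 23.8 (22.0 to 25.9). The mean log2 ratio was 4.82 ± 0.34 (SD, n = 2). The direction was the same in each heart, and the size differed between hearts by more than counting error. With 2 hearts no permutation test across samples can reach 0.05, so no p is given. Reads of miR-196a-5p that were listed apart from the genes are not in these ratios. The ratio of Mir10 to all Mir196 products was therefore not measured. Adding those reads alone would lower it, but which microRNAs the reads listed apart were is not known.

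Ratios to Mir196b leave the Mir196a genes out. miR-196b-5p is still within 1 mismatch of miR-196a-5p, and how reads of such close sequences were placed was not tested. Mir10b was 19.9 times Mir196b in replicate 1 (17.8 to 22.2) and 13.8 times in replicate 2 (12.7 to 15.0). Mir10a was 16.7 times Mir196b in replicate 1 (14.9 to 18.6) and 11.3 times in replicate 2 (10.4 to 12.4). Each ratio was smaller in replicate 2, the heart with more Mir196b.

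The levels did not follow position throughout. Mir10a was 208 times Mir615 in replicate 1 (144 to 314) and 249 times in replicate 2 (170 to 381), although Mir615, like Mir10a, lies among Hox genes of low to middle number. Mir196b, next to Hoxa10, was 12.5 times Mir615 in replicate 1 (8.50 to 19.1) and 22.0 times in replicate 2 (14.8 to 33.9). The posterior Mir196b was therefore higher than the more anterior Mir615 in each heart. Mir196b was also 70.0 times both Mir196a genes together in replicate 1 (29.7 to 217) and 114 times in replicate 2 (48.7 to 353). The limit on Mir196a counts given above holds here too. As a share of cluster length, Mir196b lies furthest of the 6 from the low-numbered end, at 70.8%. In distance Mir196a-1 lies further, at 103 kb against 74.5 kb for Mir196b.

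Pairs within a cluster could be compared in Hoxb and Hoxc. In Hoxb, Mir10a in replicate 1 was at least 1943-fold higher than Mir196a-1, which had no count and was set at the floor of 3 counts; the 2-sided exact interval of the ratio starts at 1580. In replicate 2 the ratio was 6474 to 1, with an interval of 1162 to 255748. In Hoxc, Mir615 was 5.60 times Mir196a-2 in replicate 1 (2.13 to 18.6) and 6.50 times in replicate 2 (2.26 to 25.6). In each cluster the gene nearer the low-numbered end was higher, but each pair has a Mir196a gene below it, whose count can leave out its 5' product.

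The ratio between the Mir10 genes varied least between hearts among those computed between genes of this set. Mir10b over Mir10a was 1.19 in replicate 1 (1.15 to 1.24) and 1.22 in replicate 2 (1.18 to 1.26), a mean log2 ratio of 0.27 ± 0.02. By comparison, the log2 ratio of Mir10b over Mir196b was 4.05 ± 0.37. The 5' products of the Mir10 genes are told apart by 1 base. The number of mismatches allowed in the authors' alignment is not given in the labels or file headers.

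**Figure D3:**
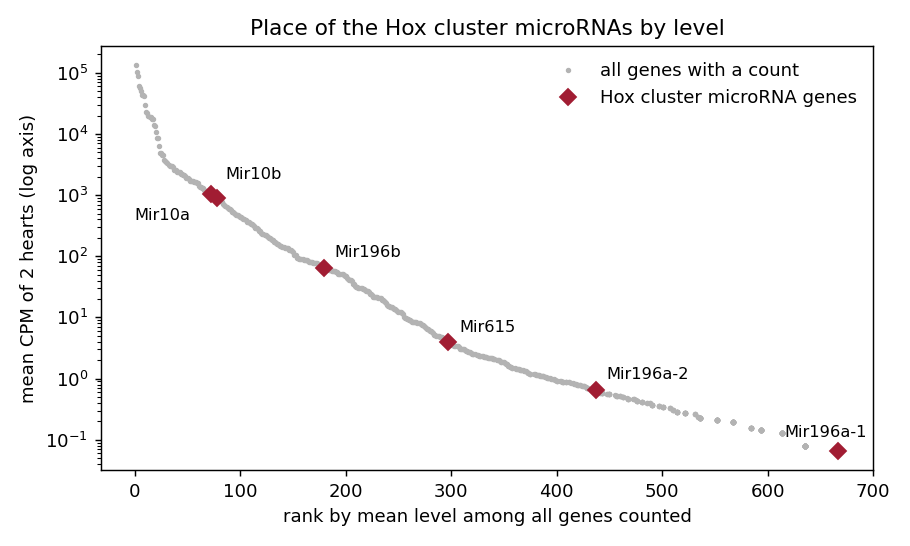
Mean CPM of 2 hearts (log axis) against rank for all genes with a count, in grey, with the Hox cluster microRNA genes as red diamonds. Mir10b and Mir10a stand at rank 72 and 78, Mir196b at 179, Mir615 at 297, and the Mir196a genes in the tail of genes with a few counts.

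In the test between the hearts, the Mir10 genes were slightly higher in replicate 1 and Mir196b was lower. The test was a 2-sided exact binomial test per gene given the library totals, with Benjamini-Hochberg adjustment over the 435 genes with 10 or more counts together. Mir10a had a log2 ratio of replicate 1 over replicate 2 of 0.11 (exact binomial adjusted p = 0.000153) and Mir10b of 0.08 (exact binomial adjusted p = 0.00275). Mir196b had a log2 ratio of -0.45 (exact binomial adjusted p = 2.45e-05), being 1.36-fold higher in replicate 2. Mir615 had a log2 ratio of 0.36 and did not pass (exact binomial adjusted p = 0.660), so at 28 and 26 counts a difference of this size was not detectable. The Mir196a genes had too few counts to be tested.

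Of the 4 genes tested, 3 passed, against 31% of all genes tested. The 3 that passed have over 100 counts, and among genes with 100 or more counts 49.1% passed, so the count says little about these genes in particular. By direction, 12% of all genes tested were higher in replicate 1 and 19.1% higher in replicate 2. The median log2 ratio was 0.09 over the 4 genes and -0.02 over all 435. For Mir196b, 63 tested genes, itself included, had a mean level within 2-fold of its own; 20 of these were called lower in replicate 1, and 10 had a log2 ratio as low as that of Mir196b or lower. Its difference was thus large among genes of like level but shared by others.

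The test compares 2 libraries and counts sampling noise only, so animals and library preparations cannot be told apart. When edgeR's exact test was given a fixed biological coefficient of variation, 0.1, none of the 4 genes passed. There the edgeR adjusted p was 0.755 for Mir196b and 1 for the others, and the unadjusted p of Mir196b was 0.0521.

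**Figure D4:**
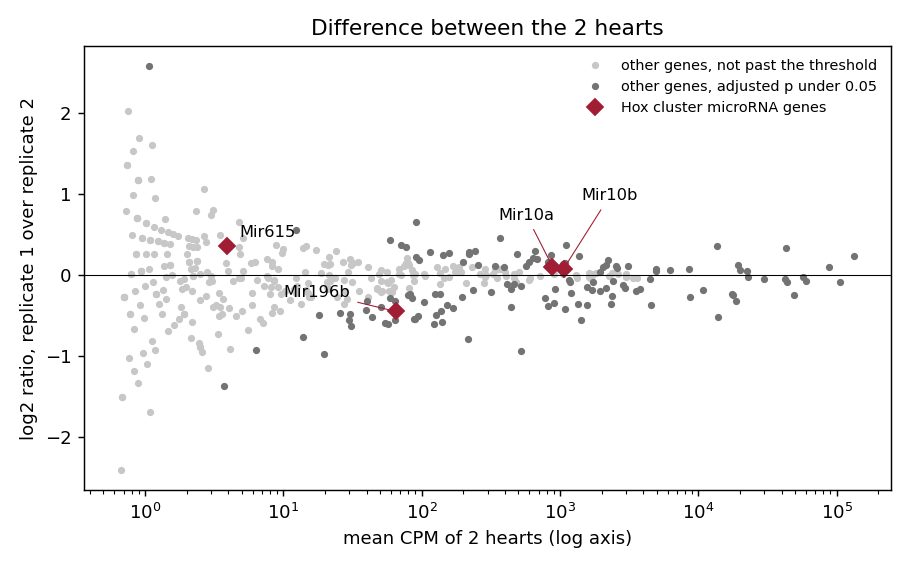
Log2 ratio of replicate 1 over replicate 2 against mean CPM (log axis) for the 435 genes tested, dark grey where the exact binomial adjusted p was under 0.05. Red diamonds are the Hox cluster microRNA genes: Mir10a and Mir10b lie just above 0, Mir196b at -0.45, and Mir615 at 0.36 among genes with few counts.

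Whole-heart libraries hold several cell types, and marker microRNAs give the setting. The cardiac muscle list (Mir208a, Mir208b, Mir499) took 12.2% of the counts in replicate 1 and 12.5% in replicate 2, so muscle markers of the labelled tissue were abundant. The endothelial list (Mir126a, Mir139) took 14.7% in replicate 1 and 12.5% in replicate 2, and the smooth muscle list (Mir143, Mir145a) 9.41% and 8.77%. These summed shares, like the Mir10 genes and the epithelial list, were higher in replicate 1, but the endothelial sum rests on Mir126a, since Mir139 was at 2741 CPM in replicate 1 and 2989 CPM in replicate 2. The skeletal muscle list (Mir206, Mir133b) took 0.00767% and 0.0110%. The summed shares of this list and of the cardiac muscle, erythroid, leukocyte and hepatocyte lists were, like Mir196b, higher in replicate 2. The cardiac sum rests on Mir208b, since Mir208a was at 15418.9 CPM in replicate 1 and 11987.5 CPM in replicate 2. Mir499, at 5106 and 4847 CPM, was also higher in replicate 1. So were Mir144 of the erythroid list and Mir223 of the leukocyte list. Mir200a went against the epithelial sum, at 7.69 CPM in replicate 1 and 8.52 CPM in replicate 2. Of 5 neuronal markers with a row, 4 had no count, and Mir9-3 had 6 counts in replicate 1 and 7 in replicate 2. The part of these cell types in the Mir10 and Mir196b differences was not tested.

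Outside the Hox clusters, the closest relatives of the Mir10 genes are Mir99a, Mir99b and Mir100, which lie in clusters with let-7 and Mir125 genes. Their mature sequences are shown to place the shared stretch.
mmu-miR-99a-5p: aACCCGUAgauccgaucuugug
mmu-miR-99b-5p: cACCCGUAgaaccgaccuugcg
mmu-miR-100-5p: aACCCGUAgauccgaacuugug
miR-10a-5p and miR-100-5p share 11 bases in a row, guagauccgaa, which start at position 7 in miR-10a-5p and at position 6 in miR-100-5p. The seeds differ, ACCCUGU against ACCCGUA. The Mir10 genes were lower than each of these relatives. Mir10b was 0.483 times Mir100 in replicate 1 (0.469 to 0.497) and 0.497 times in replicate 2 (0.484 to 0.511). The relatives had means of 2167 ± 130 CPM for Mir100, 8617 ± 351 CPM for Mir99b and 43001 ± 7160 CPM for Mir99a (SD, n = 2). Over these and Mir125a, Mir125b-1 and Mir125b-2, 4 of 6 genes were higher in replicate 1 by the exact binomial test, Mir125a was higher in replicate 2 and Mir125b-1 did not pass. All 6 have over 100 counts, and 49.1% of genes with 100 or more counts passed in either direction. Over all genes tested, 12% were higher in replicate 1 and 19.1% in replicate 2. The share by direction among genes with 100 or more counts was not computed.

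miR-196 has a like relation to let-7, the family that times development. let-7i-5p is shown as the product of an unduplicated let-7 gene.
mmu-let-7i-5p: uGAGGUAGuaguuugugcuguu
The 7 bases agguagu, which are the seed of miR-196, start at position 2 in miR-196b-5p and at position 3 in let-7i-5p, so the seeds are offset by 1 base. Mir196b at 64.9 ± 14.1 CPM stood against 43813 ± 1708 CPM for Mirlet7i.

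The 2 genes nearest in level to each detected member, by the difference in mean log2(CPM + 1) over 2 hearts, were Mir210 and Mir450b for Mir10b, at 0.01 each. For Mir10a they were Mir501 at 0.02 and Mir181a-1 at 0.05. For Mir196b they were Mir30c-2 at 0.0021 and Mir450-1 at 0.02, and for Mir615 Mir141 at 0.0016 and Mir3572 at 0.02. Mir181a-1, Mir30c-2 and Mir450-1 share 20 nt with another microRNA gene, so their counts are uncertain. With 2 hearts, likeness in level is all that can be measured.

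Few opposite-strand reads were counted at these genes. Over all genes, 7.15% of gene counts lay on the opposite strand in replicate 1 and 7.22% in replicate 2. Mir10a had 3 opposite-strand counts in replicate 1 and 0 in replicate 2, and the other 5 genes had 0 in each heart. Mir99a, Mir99b, Mir100, Mir125a, Mir125b-1, Mir125b-2 and Mirlet7i also had 0 in each heart. Low opposite-strand counts were therefore not particular to the Hox cluster genes. 1 further gene annotated as a microRNA between Hox genes, Gm44463 in Hoxd, has no row in the tables and was not analysed here.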

How the data were processed

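Per the file headers, the deposited tables were made on build mm10 with GENCODE annotation M4 from 1 alignment file per library, and hold read counts per gene that the authors did not normalize. The sources used here do not name the aligner, the counter or the trimming. Of the 3 count columns, the first equals the sum of the others in each gene row and was read as both strands; from the values, the second was taken as sense and the third as opposite-strand counts. Totals exclude all rows that name no gene. These include unmapped reads (12.6% in replicate 1, 15.5% in replicate 2) and reads in no gene (1.93% and 2.28%). They also include reads that matched several places, at 35.9% in replicate 1 and 34.6% in replicate 2.

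Names and positions came from GENCODE M21, which matched 1894 of 1973 identifiers, and sequences from RefSeq on GRCm38.p6. CPM used the sense-strand total of each library, and values are mean ± SD of 2 hearts, which the labels give as separate pups. Log2 ratios between hearts used 0.5 added counts. edgeR's quasi-likelihood test needs replicates on each side and could not be used between 2 libraries, so an exact binomial test was used. It was checked on simulated counts that held counting error only, so the check does not cover spread between animals or libraries. The members and lists were chosen with earlier results of these data known. The genes named are the 6 members, the 2 nearest in level to each detected member, other microRNA genes within Hox clusters, the miR-10 relatives and the marker lists; Mirlet7i was added for its sequence after its values were seen. Alternatives were counts of both strands, other totals and scalings, other count minimums, a preset spread, leaving out Mir615 or the Mir196a genes, and each heart alone. Marker lists not described in the report took, in replicate 1 and replicate 2, 0.111% and 0.138% (erythroid), 0.0522% and 0.0565% (leukocyte), 0.0324% and 0.0298% (epithelial), 9.41e-05% and 9.17e-05% (neuronal) and 0.00358% and 0.00446% (hepatocyte). Tools were Python 3.11.15 with SciPy 1.17.1, NumPy 2.4.6 and pandas 2.3.3, figures with matplotlib 3.10.9, and edgeR 4.0.16 and, for size factors, DESeq2 1.42.0 in R 4.3.3.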

Additional observations from a re-analysis of the deposited data

How the results depend on the processing

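The share of the 6 genes in all counts, 0.201%, was 0.187% with both strands counted, 0.113% with the reads that match several places added to the total, and 0.232% with Mir126a, the most abundant gene, left out of it; the totals themselves account for these shifts. The log2 ratio of Mir10 over Mir196 and Mir615 was 4.90 without Mir615, 4.83 without the Mir196a genes, and 4.58 to 5.06 in single hearts. That of Mir10b over Mir10a was 0.26 to 0.28 in single hearts. Of 435 genes, 129 to 146 differed between hearts, against 135, with other minimums, scalings or strands. The edgeR exact test called 1 gene at a preset coefficient of variation of 0.1 (29 at an unadjusted p under 0.05) and 0 at 0.2 (4 unadjusted). Directions of Mir10a, Mir10b and Mir196b held under TMM and DESeq2 size factors, and their calls were lost only with a preset spread. No paired analysis was possible because there is 1 group. Counts of 28 or fewer limit Mir615 and the Mir196a genes.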

Other observations

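Mir125b-1 and Mir125b-2 also share their 5' mature sequence, like the Mir196a genes, but were counted at 288 ± 10.2 CPM and 634 ± 66.6 CPM (SD, n = 2). The Mir196a genes were at 0.654 ± 0.184 CPM for Mir196a-2 and at 0 counts and 1 count for Mir196a-1. Of these pairs with a shared mature sequence, the counts were therefore well above the level of 3 counts for Mir125b and at or near it for Mir196a. How many reads of each pair were listed apart from the genes is not known. The contrast therefore does not show that miR-196a-5p itself was low.

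The 3' arms of the Mir10 genes, which the deposited counts do not separate from the 5' arms, differ at 3 positions counted from the 5' end of miR-10a-3p, against 1 position between the 5' arms. They carry different seeds, AAAUUCG in miR-10a-3p and AGAUUCG in miR-10b-3p, each found in no other gene of the RefSeq table.
mmu-miR-10a-3p: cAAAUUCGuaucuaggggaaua
mmu-miR-10b-3p: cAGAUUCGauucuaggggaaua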
